A study of Caenorhabditis elegans with 12 samples.

Results

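Insulin-like peptides are the secreted ligands of DAF-2, the insulin/IGF receptor of Caenorhabditis elegans, and the genes examined here are those with a WormBase symbol of ins followed by a number, together with daf-28. Of the 25122 genes measured, 37 belong to this family. The name table holds 39 such genes, and ins-16 and ins-21 were not analysed here. The rule uses the gene name and no measured value, although the family was taken up with earlier results of these data known.

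C. elegans carries far more insulin-like genes than mammals do. The peptides are made as precursors, cut by proprotein convertases, stored in dense-core vesicles and released, many of them from sensory neurons and the intestine. Some members activate DAF-2 and others oppose it. Activation of DAF-2 leads through a phosphoinositide 3-kinase and AKT cascade to retention of the FOXO transcription factor DAF-16 outside the nucleus, which sets dauer formation, growth and lifespan.

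RNA was sequenced from eggs of 3 genotypes in 12 libraries, 4 for each genotype. The reduction-of-function allele e1370 of the receptor gene daf-2 was present in every library. The first carried it alone, the second also carried bcl-11(bon125), a frameshift allele of a zinc finger transcription factor gene in which the zinc fingers are kept, and the third carried daf-16(mu86), a deletion, with both of the others. The second is called the labelled double mutant here and the third the triple mutant. Wild-type eggs were not part of the comparison, so every value below was obtained with a weakened receptor. Parents were grown at 20°C on OP50-1 bacteria, and their eggs were released by bleaching and held at 27°C for 2 h before RNA extraction. Libraries are numbered 1 to 4 within a genotype and the batch label repeats that number, so each batch held 1 library of each genotype. No label says whether libraries came from separate cultures, and p-values measure only the spread between these libraries.

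The deposited values are regularized-log (rlog) values, which are normalized counts on a log2 scale with genes of few counts pulled towards their mean. Fold changes of low genes are therefore understated, and sequencing depth is unknown. The values ran from -1.52 to 23.1. The median value of a library was 6.36 to 6.50 in daf-2, 5.92 to 6.01 in the labelled double mutant and 5.77 to 5.95 in the triple mutant. Centring each library on its median adds 0.43 to the log2 fold changes of the labelled double mutant against daf-2 and 0.54 to those of the triple mutant against daf-2, whereas quantile normalization moved some differences up and others down.

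The genes altered in these strains come first. daf-16 showed 12.14, 12.32, 12.03 and 11.98 in the daf-2 libraries, 9.51, 9.61, 9.50 and 9.46 in those labelled double mutant, and 9.65, 9.77, 9.90 and 9.58 in the triple mutant. The libraries labelled double mutant, in which daf-16 should be intact, thus held as little daf-16 RNA as those with the deletion, and they are named by their label throughout. Directions given for these libraries rest on the label alone. bcl-11 was lower in both by limma with Benjamini-Hochberg adjustment, by a log2 difference of -0.87 (adjusted p = 0.0373, standard error 0.29) in the libraries labelled double mutant and -1.05 (adjusted p = 0.0132, standard error 0.29) in the triple mutant. Both calls were lost when libraries were centred, at -0.44 and -0.51. The first was also lost with quantile normalization, with a stage score as a covariate (the mean rlog value of maternal and early zygotic markers minus that of late embryo markers in a library), with eBayes without trend and without any single library of daf-2 replicates 1, 2 and 4 or of the labelled double mutant. The second was lost in a fit of only the 2 genotypes compared. Between daf-2 and the labelled double mutant the stage score did not overlap, so there this covariate cannot separate stage from genotype. daf-2 itself had group means of 10.01, 9.96 and 10.05.

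A member was taken as expressed where its mean was above log2(10), which is 3.32, in at least 1 genotype. That held for 24 of the 37 members, beside 68.5% of all genes. 18 members were above this level in every genotype: ins-1, ins-2, ins-3, ins-5, ins-6, ins-10, ins-11, ins-17, ins-18, ins-22, ins-24, ins-27, ins-30, ins-33, ins-34, ins-35, ins-36 and ins-37. ins-7, ins-20, ins-26 and ins-28 were above it in daf-2 only, so for these 4 a lower mean in the other genotypes is part of how they were sorted. ins-14 was above it in daf-2 and in the libraries labelled double mutant, with means of 3.66 and 3.47 against 3.26 in the triple mutant. ins-19 was above it in the triple mutant only, at 3.35. By genotype, 23 members passed in daf-2, 19 in the libraries labelled double mutant and 19 in the triple mutant. The share of all genes above the level was not counted by genotype, and library medians were also highest in daf-2. These counts therefore have no background to be read against. The members just above the level were ins-19 (highest genotype mean 3.35), ins-7 (3.39) and ins-26 (3.50), and those just below were ins-13 (3.20), ins-31 (3.08) and ins-39 (2.78).

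The remaining 13 members were not above the level in any genotype. They include daf-28 and ins-4, both agonists of DAF-2 that act against dauer formation in larvae. daf-28 had means of 1.68, 1.65 and 1.62 in daf-2, the libraries labelled double mutant and the triple mutant. ins-4 had the same value of 1.24 in all 4 triple mutant libraries and reached 1.77 in daf-2 replicate 4. The lowest was ins-25, at -1.28 to -1.18 over the 12 libraries. Of these 13, ins-29 differed most from daf-2, with 2.38, 1.59, 1.59 and 2.60 in the daf-2 libraries and 1.59 to 1.60 in all other libraries. The higher mean of ins-29 in daf-2 came from replicates 1 and 4, and it did not pass the test.

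rlog values are not divided by transcript length, so levels were compared between genes only after subtracting the log2 length, in kb, of the longest annotated transcript. On this rlog per kb scale the highest levels in daf-2 eggs were those of ins-2 (12.32), ins-11 (10.97), ins-34 (10.46), ins-6 (10.29) and ins-35 (9.77). ins-3 (9.12), ins-36 (9.06), ins-30 (9.05) and ins-22 (8.88) followed, within the spread of single libraries of each other. The spans of ins-34 and ins-36 are overlapped by genes on the opposite strand, and the libraries do not keep the strand. Whether reads of those genes add to these levels was not tested. In the libraries labelled double mutant, ins-11 stood at 7.00 and ins-6 at 6.48 per kb, and in the triple mutant at 6.99 and 6.61. Both genes thus left the top of the order, while ins-2 was the highest in all 3 genotypes.

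**Figure D1:**
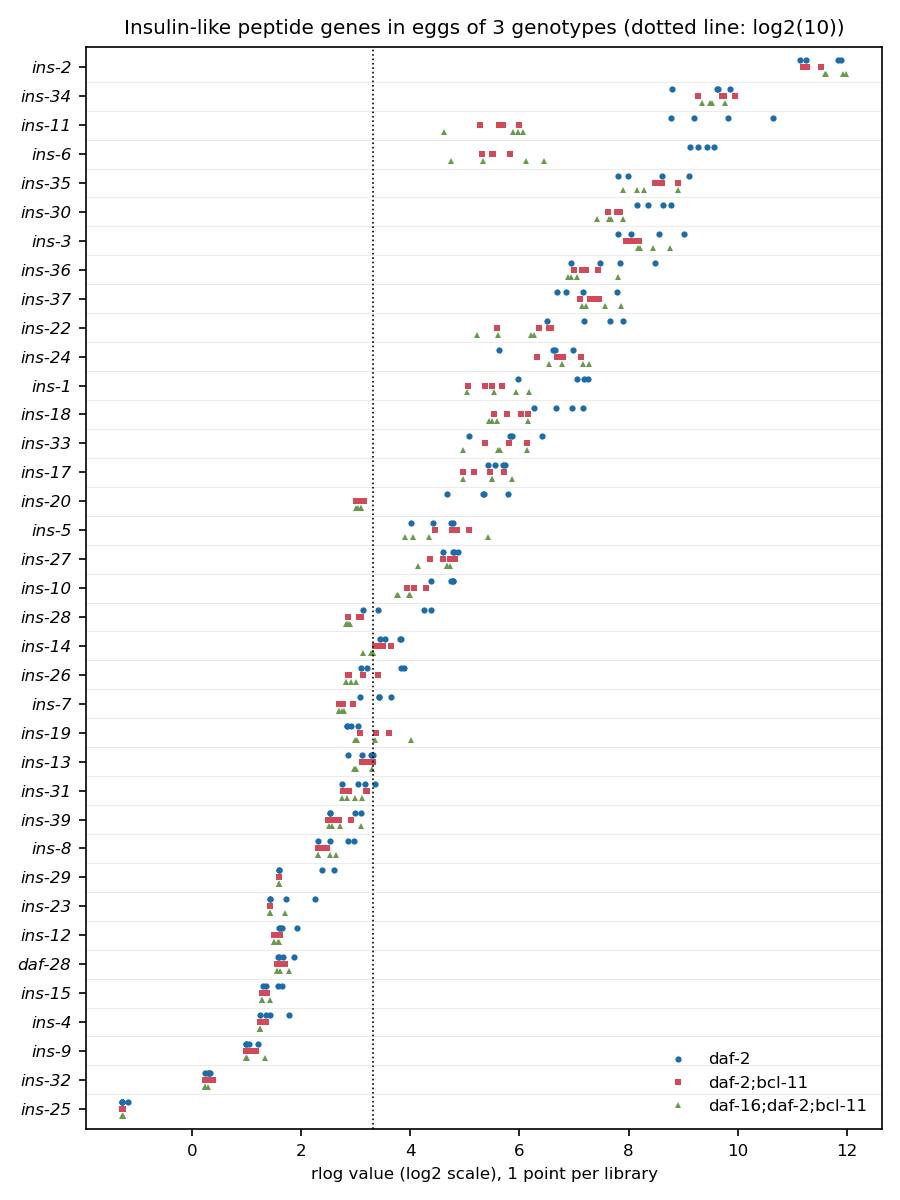
rlog values (log2 scale) of the 37 insulin-like peptide genes, 1 point per library, with daf-2 as circles, labelled double mutants as squares and the triple mutant as triangles; the dotted line is log2(10). ins-11 and ins-6 lie at 8.78 or above in every daf-2 library and at 6.45 or below in every other library, while ins-2 lies at 11.14 or above in all 12.

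The first comparison sets daf-2 eggs against those labelled as also carrying bcl-11(bon125), in which daf-16 RNA was low as well. The bcl-11 allele and the low daf-16 RNA cannot be told apart in it. ins-11, ins-6 and ins-20 were the members with the largest differences, and all 3 were lower in the libraries labelled double mutant. Genes were called at an adjusted p below 0.05 (limma, Benjamini-Hochberg over all 25122 genes) and a change above 1.5-fold, which is 0.585 on the log2 scale. 10 of 37 members, 27.0%, were called, and all 10 were lower: ins-1, ins-6, ins-7, ins-10, ins-11, ins-18, ins-20, ins-22, ins-28 and ins-30. Among all genes, 22.0% were called, 15% as lower and 7.0% as higher. The libraries of 10 members did not overlap, beside 35.3% of all genes. With both directions counted, the share of members called is thus near the share of all genes, and the family does not stand out by its number of calls. Called as lower were 27.0% of members, beside 15% of all genes, and the difference between these shares was not tested. The median log2 fold change of the members was -0.19, beside -0.02 for all genes.

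The second comparison sets triple mutant eggs against the same daf-2 libraries. 11 members, 29.7%, were called, again all lower, beside 22.5% of all genes (16.2% lower and 6.38% higher). The libraries of 11 members did not overlap, beside 29.8% of all genes. Those called were the 10 members named above and ins-26, and the median log2 fold change of the members was -0.20, beside -0.01 for all genes. The 4 daf-2 libraries serve as the reference in each, so the members named in both are not a second, separate observation.

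The third comparison, the triple mutant against the libraries labelled double mutant, differs by daf-16 in the labels. No member was called by limma, beside 0.0119% of all genes (3 genes), and 1 member had an unadjusted p under 0.05, beside 6.03% of all genes. That member was ins-2, with 11.92, 11.60, 11.61 and 11.98 in the triple mutant and 11.20, 11.52, 11.26 and 11.25 in the libraries labelled double mutant. The groups did not overlap, by a log2 difference of 0.47 (standard error 0.18, two-sided exact permutation p = 0.0286, the smallest that 4 libraries against 4 allow), but the adjusted p from limma was 0.787. ins-14 was the other member without overlap, and it was lower by a log2 difference of -0.21 (standard error 0.13, adjusted p = 0.793, limma). Of all genes, 4.32% did not overlap in this comparison. daf-16 itself was 0.20 higher on the log2 scale in the triple mutant (standard error 0.13, adjusted p = 0.793 by limma).

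**Figure D2:**
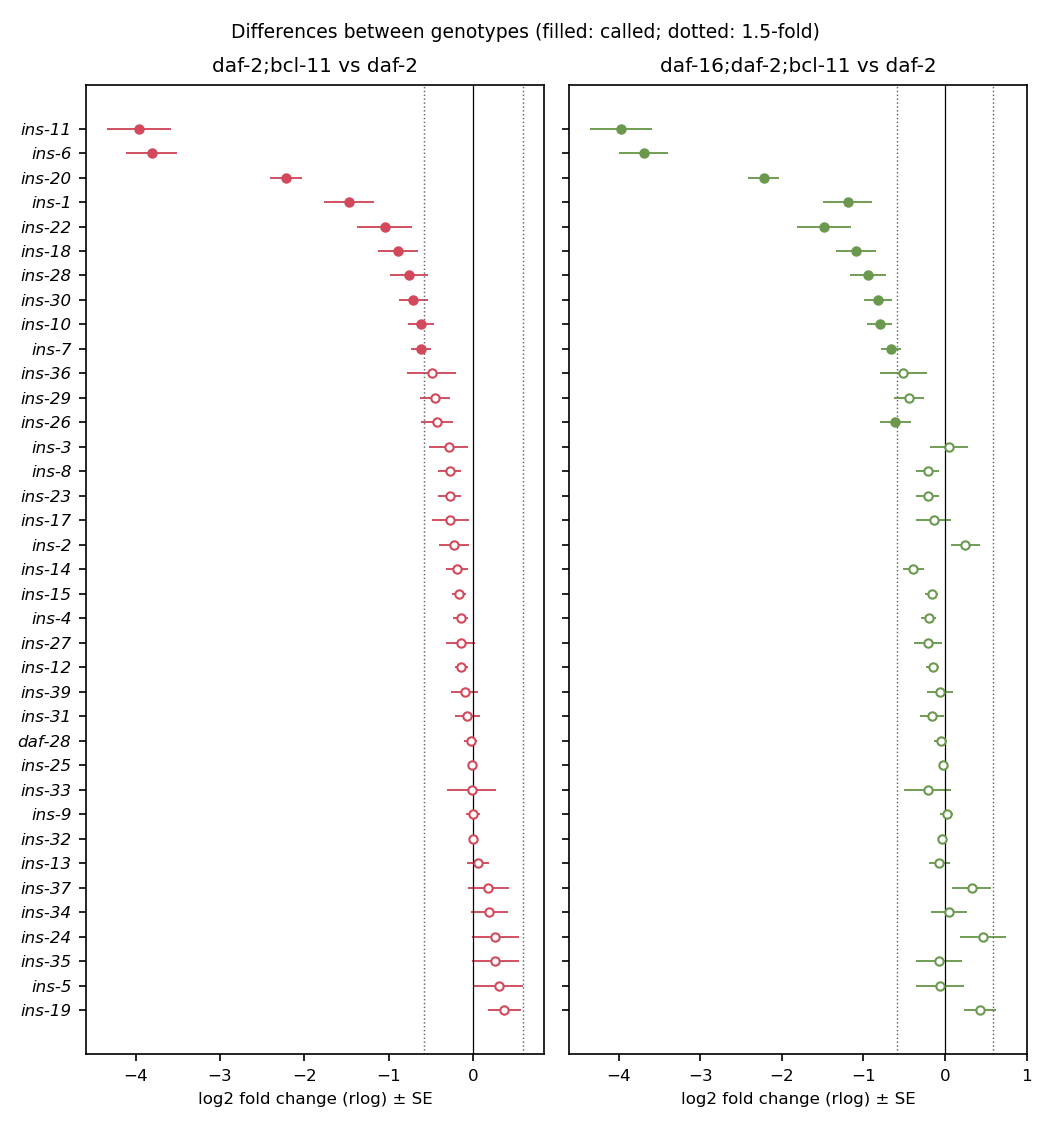
log2 fold change of each member against daf-2, with the standard error from limma, for the libraries labelled double mutant (left) and for the triple mutant (right). Filled points were called, 10 on the left and 11 on the right, all below 0, and dotted lines mark 1.5-fold.

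ins-11 encodes an insulin-like peptide known for its role in the intestine in learned avoidance of pathogenic bacteria. It lies on chromosome II of WBcel235, at 5556731 to 5557173. Its values were 9.82, 9.20, 8.78 and 10.65 in the daf-2 libraries, 5.69, 5.28, 5.63 and 6.00 in those labelled double mutant, and 4.62, 6.06, 5.98 and 5.89 in the triple mutant. Every daf-2 library was above every other library by more than the spread within any genotype. The log2 fold change was -3.96 (standard error 0.38, adjusted p = 1.26e-05, limma), a 15.6-fold difference, in the libraries labelled double mutant. It was -3.97 (standard error 0.38, adjusted p = 7.63e-06, limma), or 15.7-fold, in the triple mutant. Only 30 of the 25122 genes had a more negative change in the first comparison and 28 in the second.

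ins-6, an agonist of DAF-2 that promotes exit from the dauer stage and is made in amphid sensory neurons of larvae, lies on chromosome II at 6000436 to 6001009. It had values of 9.44, 9.56, 9.13 and 9.27 in the daf-2 libraries, 5.83, 5.32, 5.51 and 5.49 in those labelled double mutant, and 4.74, 5.34, 6.45 and 6.12 in the triple mutant. The groups were again far apart, and the spread was widest in the triple mutant (SD 0.77, n = 4, against 0.19 in daf-2). The log2 fold change was -3.81 (standard error 0.30, adjusted p = 2.03e-06, limma), or 14.0-fold, in the libraries labelled double mutant and -3.69 (standard error 0.30, adjusted p = 2.26e-06, limma), or 12.9-fold, in the triple mutant. 34 and 39 genes had a more negative change. Replicate 1 of the triple mutant held the lowest value of both ins-6 and ins-11.

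ins-20 (chromosome II, 6010844 to 6011321) had values of 5.79, 4.67, 5.35 and 5.34 in the daf-2 libraries, 3.08, 3.00, 3.03 and 3.16 in those labelled double mutant, and 3.01, 3.10, 3.05 and 3.09 in the triple mutant. It was above log2(10) in every daf-2 library and below it in every other library. The log2 fold change was -2.22 in both comparisons (standard error 0.19, adjusted p = 4.52e-06 and 2.9e-06, limma). 157 and 239 genes had a more negative change.

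ins-6, ins-11 and ins-20 were called as lower under all 19 alternatives in both comparisons. Over these, the log2 fold change in the libraries labelled double mutant ranged from -4.29 to -3.54 for ins-11, from -3.91 to -3.38 for ins-6 and from -2.43 to -1.79 for ins-20. In the triple mutant the ranges were -4.25 to -3.44, -3.95 to -3.15 and -2.43 to -1.69. Alternatives that leave out a library of the genotype not compared cannot move the fold change, so a tally out of 19 overstates the checking. The thresholds of 1 and of none are counted apart from the 19.

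Of 6 members known as agonists of DAF-2 (daf-28, ins-3, ins-4, ins-6, ins-7 and ins-35), 2 (33.3%) fell in both comparisons, ins-6 and ins-7, beside 15% and 16.2% of all genes called as lower. ins-7, an agonist made in the intestine and in neurons and known as a target of DAF-16 in adults, had 3.08, 3.42, 3.42 and 3.65 in the daf-2 libraries, 2.69, 2.95, 2.76 and 2.69 in those labelled double mutant, and 2.75, 2.69, 2.78 and 2.69 in the triple mutant. The groups did not overlap but lay close together, and ins-7 is among the lowest of the expressed members. Its log2 fold changes were -0.62 (standard error 0.12, adjusted p = 0.00211, limma) and -0.66 (standard error 0.12, adjusted p = 0.000993, limma). Both calls were lost when libraries were centred, at -0.19 and -0.12, with quantile normalization, at -0.48 and -0.52, and without daf-2 replicate 4, at -0.53 and -0.58. ins-3, which with ins-33 is known to promote proliferation in the larval germline, had means of 8.35, 8.07 and 8.40, and ins-35 of 8.38, 8.64 and 8.31, and neither passed the test.

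Of 4 members known to oppose DAF-2 (ins-1, ins-17, ins-18 and ins-37), 2 fell in both comparisons, ins-1 and ins-18, beside the same 15% and 16.2% of all genes. ins-1, the member most like human insulin, had 5.97, 7.25, 7.18 and 7.06 in the daf-2 libraries, 5.68, 5.06, 5.36 and 5.49 in those labelled double mutant, and 5.94, 5.04, 6.18 and 5.53 in the triple mutant. Replicate 1 of daf-2 was low for ins-1 and overlapped with the triple mutant. The log2 fold changes were -1.47 (standard error 0.30, adjusted p = 0.00232, limma) and -1.19 (standard error 0.30, adjusted p = 0.00718, limma). The first was called under all 19 alternatives and the second under 18, being lost with quantile normalization at -0.66.

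ins-18 had 6.97, 6.67, 6.26 and 7.17 in the daf-2 libraries, 6.15, 5.53, 6.03 and 5.78 in those labelled double mutant, and 5.59, 5.45, 6.16 and 5.50 in the triple mutant. Its groups did not overlap with daf-2, and the log2 fold changes were -0.89 (standard error 0.24, adjusted p = 0.0103, limma) and -1.09 (standard error 0.24, adjusted p = 0.00254, limma). Both calls were lost with centring, at -0.47 and -0.55, and with quantile normalization, at -0.46 and -0.55, and the first also with the stage score as a covariate, at -0.87 (adjusted p = 0.0938, limma). ins-17 had means of 5.60, 5.33 and 5.46 and ins-37 of 7.12, 7.30 and 7.45, and neither passed the test. Agonists and antagonists were thus found both among the members that fell and among those that did not pass.

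ins-22, whose peptide is widely used as a marker of dense-core vesicles in neurons, had 7.65, 7.18, 6.51 and 7.90 in the daf-2 libraries, 6.58, 6.35, 5.59 and 6.54 in those labelled double mutant, and 5.61, 5.23, 6.22 and 6.26 in the triple mutant. Only the last group did not overlap with daf-2. Its log2 fold changes were -1.05 (standard error 0.33, adjusted p = 0.0257, limma), called under 13 of 19 alternatives, and -1.48 (standard error 0.33, adjusted p = 0.00304, limma), called under all 19.

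ins-30 had 8.35, 8.63, 8.16 and 8.77 in the daf-2 libraries, 7.62, 7.85, 7.83 and 7.78 in those labelled double mutant, and 7.64, 7.89, 7.42 and 7.68 in the triple mutant, without overlap with daf-2. Its log2 fold changes were -0.71 (standard error 0.17, adjusted p = 0.00683, limma) and -0.82 (standard error 0.17, adjusted p = 0.00218, limma), and both calls were lost with centring, at -0.28 in each, and with quantile normalization, at -0.34 and -0.33. ins-28 had 4.37, 3.13, 3.41 and 4.25 in the daf-2 libraries and lay between 2.82 and 3.10 in the other 8. The log2 fold changes of ins-28 were -0.76 (standard error 0.22, adjusted p = 0.0183, limma) and -0.94 (standard error 0.22, adjusted p = 0.00486, limma), with daf-2 replicates 1 and 4 well above replicates 2 and 3. Both were lost with centring, at -0.34 and -0.40. The first was also lost without daf-2 replicate 1, at -0.57, without daf-2 replicate 4, at -0.61, and without labelled double mutant replicate 2, at -0.71.

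ins-10 had 4.78, 4.75, 4.37 and 4.79 in the daf-2 libraries, 3.93, 3.94, 4.06 and 4.29 in those labelled double mutant, and 3.78, 3.75, 3.99 and 3.98 in the triple mutant, with every daf-2 library above all others. Its log2 fold changes were -0.62 (standard error 0.15, adjusted p = 0.00751, limma) and -0.80 (standard error 0.15, adjusted p = 0.00114, limma), called under 12 and 17 of 19 alternatives. The span of the gene is overlapped on the opposite strand by vps-39, and the libraries do not keep the strand. Reads from a stretch shared by both transcripts could not be told apart, but whether such a stretch exists was not checked. vps-39 had a log2 fold change of 0.57 and 0.34 and was not called. ins-26 was called in the triple mutant only, at -0.61 on the log2 scale (standard error 0.19, adjusted p = 0.0218, limma), and was at -0.43 (standard error 0.19, adjusted p = 0.0975, limma) in the libraries labelled double mutant. The call was lost with centring, at -0.07, with quantile normalization, at -0.45, and without daf-2 replicate 1 (-0.48), daf-2 replicate 4 (-0.50) or triple mutant replicate 1 (-0.59). Its values were 3.89, 3.20, 3.09 and 3.82 in the daf-2 libraries, 3.13, 2.86, 2.87 and 3.41 in those labelled double mutant, and 2.82, 2.91, 2.83 and 3.01 in the triple mutant, where only the last did not overlap with daf-2. Between the mutants ins-26 differed by a log2 value of -0.17 (standard error 0.19, adjusted p = 0.867, limma).

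Other abundant members did not pass the test against daf-2 in either comparison. ins-2 had 11.84, 11.25, 11.14 and 11.89 in the daf-2 libraries, and log2 fold changes of -0.23 and 0.25. Both of the other genotypes overlapped with daf-2 there. ins-34 had 9.62, 9.86, 9.63 and 8.80 in the daf-2 libraries, 9.95, 9.71, 9.27 and 9.75 in those labelled double mutant, and 9.76, 9.50, 9.52 and 9.35 in the triple mutant. It is overlapped on the opposite strand by nkcc-1, which fell by 0.59 on the log2 scale in the libraries labelled double mutant. ins-35 had 9.11, 7.99, 7.81 and 8.62 in the daf-2 libraries, 8.90, 8.62, 8.49 and 8.55 in those labelled double mutant, and 8.29, 8.16, 7.90 and 8.90 in the triple mutant. The daf-2 libraries alone spanned all the others.

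ins-3 had 8.55, 8.04, 7.80 and 9.01 in the daf-2 libraries, 8.01, 8.10, 8.19 and 7.96 in those labelled double mutant, and 8.21, 8.44, 8.18 and 8.75 in the triple mutant. ins-36 had 8.48, 6.94, 7.48 and 7.84 in the daf-2 libraries, 7.43, 7.22, 7.00 and 7.14 in those labelled double mutant, and 6.95, 7.06, 6.88 and 7.80 in the triple mutant. For both genes the spread within daf-2 (SD 0.54 and 0.65, n = 4) was larger than the difference from either genotype. With the stage score as a covariate, however, ins-36 was called as lower in both comparisons, at -1.14 (adjusted p = 0.0351, limma) and -0.88 (adjusted p = 0.0255, limma). ins-36 is overlapped on the opposite strand by Y53H1A.7 and anr-40. ins-37 had 7.16, 6.69, 6.86 and 7.78 in the daf-2 libraries, 7.36, 7.45, 7.11 and 7.29 in those labelled double mutant, and 7.15, 7.57, 7.21 and 7.86 in the triple mutant, overlapping throughout. It is overlapped by F08G2.9 on the same strand and by R05D7.8 on the opposite strand.

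The genotypes also overlapped for the less abundant members ins-33, ins-17 and ins-27. ins-33 had 5.82, 5.87, 5.08 and 6.42 in the daf-2 libraries, 5.80, 5.81, 6.14 and 5.36 in those labelled double mutant, and 6.13, 5.64, 5.61 and 4.97 in the triple mutant. ins-17 had 5.70, 5.55, 5.42 and 5.74 in the daf-2 libraries, 5.16, 5.46, 4.97 and 5.71 in those labelled double mutant, and 4.96, 5.50, 5.87 and 5.49 in the triple mutant. ins-27 had 4.60, 4.79, 4.80 and 4.88 in the daf-2 libraries, 4.59, 4.36, 4.72 and 4.82 in those labelled double mutant, and 4.68, 4.68, 4.73 and 4.14 in the triple mutant. ins-33, ins-27 and ins-5 had log2 fold changes of -0.21 to 0.30 against daf-2.

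Near the level of log2(10), ins-14 had 3.81, 3.53, 3.45 and 3.82 in the daf-2 libraries, 3.39, 3.49, 3.35 and 3.64 in those labelled double mutant, and 3.27, 3.14, 3.32 and 3.32 in the triple mutant. Its difference between the triple mutant and daf-2 passed the adjusted p (-0.39, standard error 0.13, adjusted p = 0.0315, limma) without reaching 1.5-fold. ins-19 had 2.84, 3.05, 2.84 and 2.91 in the daf-2 libraries, 3.60, 3.07, 3.08 and 3.37 in those labelled double mutant, and 2.99, 3.35, 3.03 and 4.01 in the triple mutant. It was the only member with a higher level in every labelled double mutant library than in any daf-2 library, by 0.37 on the log2 scale, which did not pass the test (adjusted p = 0.187 by limma, standard error 0.20).

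The direction of these small differences depends on the scaling. With each library centred on its median, members were called in both directions, 6 higher and 4 lower in the libraries labelled double mutant, and 5 higher and 5 lower in the triple mutant. Among all 25122 genes, 6714 and 9434 were then called as higher and 1860 and 2031 as lower. The higher members were then ins-5, ins-19, ins-24, ins-34, ins-35 and ins-37 in the first and ins-2, ins-19, ins-24, ins-34 and ins-37 in the second. The lower ones were ins-1, ins-6, ins-11 and ins-20, joined by ins-22 in the second. With quantile normalization 5 members were called in the first comparison, all lower, and 7 in the second, of which ins-24 and ins-37 were higher. Of all genes, 4818 and 4918 were called there.

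The 37 members are spread over the chromosomes as 15 on II, 10 on I, 4 on IV, 3 on III, 3 on V and 2 on X, and 19 lie within 2000 bp of another member. The cluster on chromosome II from 5988524 to 6011321, 22.8 kb long, holds 6 measured members, of which ins-6 and ins-20 were called and ins-2, ins-3, ins-4 and ins-5 were not. ins-5, which starts 2.88 kb before ins-6, had 4.74, 4.42, 4.79 and 4.01 in the daf-2 libraries and 5.08, 4.46, 4.76 and 4.86 in those labelled double mutant, with 4.05, 4.34, 3.90 and 5.42 in the triple mutant, so the nearest member to ins-6 did not share its difference. Members with a lower level thus sat beside members whose groups overlapped. How far reads could be shared between similar members was not tested, since no sequences were used here.

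**Figure D3:**
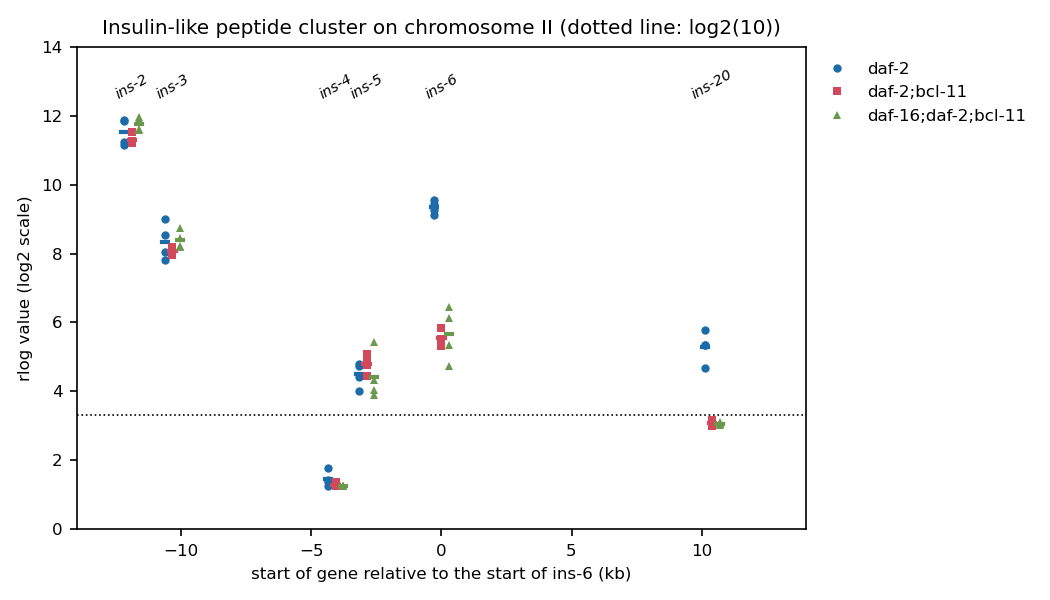
rlog values (log2 scale) of the 6 measured members of the chromosome II cluster, 1 point per library with a bar at each genotype's mean, against the distance of the gene's start from that of ins-6 in kb; genotypes are offset sideways and the dotted line is log2(10). Only ins-6 and ins-20 separate daf-2 from the other genotypes.

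ins-11 lies apart from that cluster, with ins-12 starting 2.11 kb before it. ins-12 had means of 1.70, 1.56 and 1.54 and was not called. Within 15 kb of ins-11, the protein-coding genes acdh-2 and C17C3.5 were higher than in daf-2. acdh-2, an acyl-CoA dehydrogenase gene, had log2 fold changes of 2.01 (adjusted p = 5.09e-06, limma) and 1.96 (adjusted p = 3.89e-06, limma), and C17C3.5 of 0.96 (adjusted p = 0.0033, limma) and 0.87 (adjusted p = 0.00534, limma). C17C3.3, starting 5.01 kb after ins-11, had means of 8.40, 8.29 and 8.43 and was not called. ins-13 overlaps acdh-2 on the same strand and had means of 3.14, 3.20 and 3.07.

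The other cluster, on chromosome I from 14012369 to 14037777 (25.4 kb), holds 7 members: ins-28, ins-29, ins-25, ins-27, ins-24, ins-30 and ins-26. ins-28 and ins-30 were called in the first comparison, and ins-26 with them in the second. ins-24, between ins-27 and ins-30, had 6.98, 6.62, 5.62 and 6.66 in the daf-2 libraries, between 6.33 and 7.12 in those labelled double mutant, and 7.17, 6.54, 6.78 and 7.27 in the triple mutant, overlapping groups with the higher mean in the latter.

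Genes that make and release the peptides were examined as a list of 10. With the values as deposited, 4 of 10 fell in the libraries labelled double mutant and 5 of 10 in the triple mutant. That compares with 15% and 16.2% of all genes called as lower, and no gene of the list rose. The median log2 fold changes of the list were -0.46 and -0.56. egl-21, the carboxypeptidase that trims peptide precursors, had log2 fold changes of -1.12 and -1.56 (adjusted p = 0.00561 and 0.000482, limma). Its values were 11.05, 11.22, 10.71 and 11.33 in the daf-2 libraries, 10.07, 9.62, 9.85 and 10.29 in those labelled double mutant, and 8.65, 9.55, 10.17 and 9.72 in the triple mutant, without overlap with daf-2. sbt-1, the chaperone of the convertase EGL-3, stood at -1.08 and -1.35 (adjusted p = 0.000397 and 4.93e-05, limma). aex-5, a convertase active in intestinal and muscle secretion, was lower at -1.23 and -1.46 (adjusted p = 0.00411 and 0.00103, limma). ida-1, a dense-core vesicle protein, stood at -0.90 and -0.98 (adjusted p = 0.00748 and 0.00351, limma).

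The convertase gene egl-3 was called in the triple mutant only, with log2 fold changes of -0.67 (adjusted p = 0.0574, limma) and -0.90 (adjusted p = 0.0128, limma). The convertase genes kpc-1 and bli-4, the vesicle priming gene unc-31, hid-1 and asna-1 were not called in either. kpc-1 had means of 13.60, 13.72 and 13.84 and bli-4 of 13.68, 13.81 and 13.62. The log2 fold changes of hid-1 were 0.26 and 0.49 and those of asna-1 0.30 and 0.43, to which centring adds 0.43 and 0.54. With centring, aex-5, egl-21 and sbt-1 stayed lower in both comparisons while ida-1 was no longer called, at -0.47 and -0.45, nor was egl-3 in the triple mutant, at -0.36. With the stage score as a covariate, egl-21 and ida-1 were not called in the first comparison, at -1.07 (adjusted p = 0.0637, limma) and -0.56 (adjusted p = 0.206, limma). The call of egl-3 was also lost in a fit of only the 2 genotypes compared.

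The receptor and its cascade were a list of 10, of which 20.0% and 10.0% were called, beside 22.0% and 22.5% of all genes. In the libraries labelled double mutant, age-1, the catalytic subunit of phosphoinositide 3-kinase, rose by 0.60 on the log2 scale (adjusted p = 0.0232, limma), and daf-16 had a log2 fold change of -2.60 (adjusted p = 1.23e-08, limma). The call of age-1 was lost with the stage score as a covariate, at 0.08 (adjusted p = 0.813, limma), with quantile normalization, at 0.41, without daf-2 replicate 1, at 0.47, and without labelled double mutant replicate 1, at 0.54. In the triple mutant only daf-16 was called, at -2.39 (adjusted p = 3.43e-08, limma), with age-1 at 0.49 (called as higher with centring, at 1.03, and without daf-2 replicate 4, at 0.60). With the main settings the remaining 8 genes, among them the receptor gene, aap-1, pdk-1, akt-1, akt-2 and sgk-1, were called in neither. aap-1 stood at 0.57 in the first comparison (adjusted p = 0.0045, limma), short of 1.5-fold. It was called there without daf-2 replicate 3 or 4, or without labelled double mutant replicate 3 or 4. With centring, aap-1 was called as higher in both comparisons, at 1.0, and the receptor gene in the triple mutant, at 0.59. In the third comparison no gene of either list was called.

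**Figure D4:**
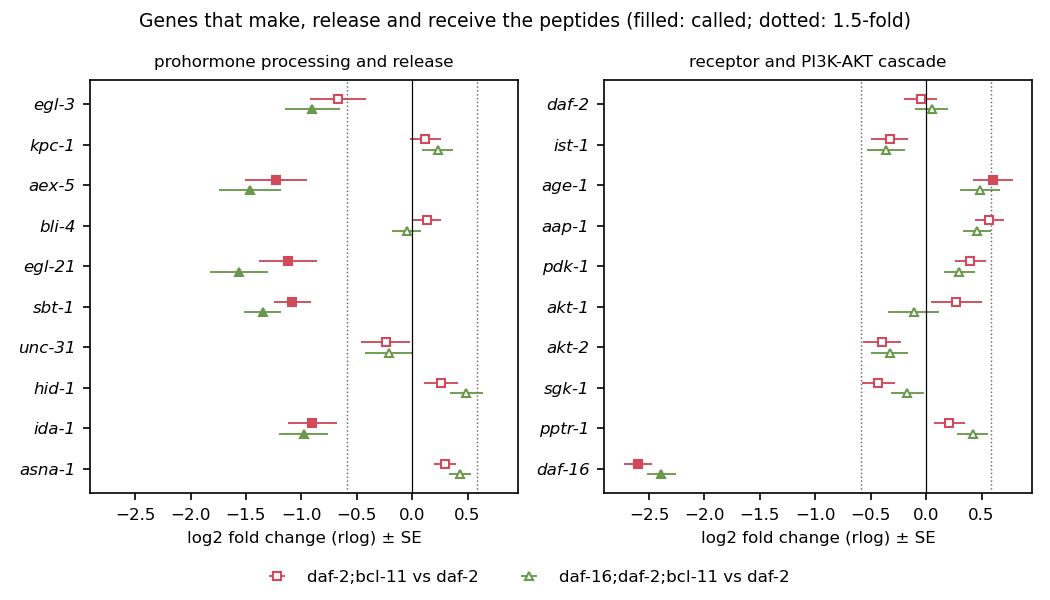
log2 fold change against daf-2 with the standard error from limma, for 10 genes of peptide processing and release (left) and 10 genes of the receptor cascade (right), with squares for the libraries labelled double mutant and triangles for the triple mutant. Filled points were called and dotted lines mark 1.5-fold; egl-21, sbt-1, aex-5 and ida-1 are filled and below 0 in both, and daf-16 is the lowest of the cascade.

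Eggs are a mixture of stages and cell types, and fewer cells of a type cannot be told apart from less RNA per cell in such bulk samples. Several marker lists of stages and tissues also differed between genotypes, some of them lower and some higher than in daf-2. Of all genes, 15% and 16.2% were called as lower in the first and second comparisons, and 7.0% and 6.38% as higher. Of 9 genes of amphid sensory neurons, the cells in which ins-6 is known to be made, 7 fell in the libraries labelled double mutant and 5 in the triple mutant, and none rose. The mean of that list ran from 8.68 to 8.96 over the daf-2 libraries, from 7.61 to 8.00 over those labelled double mutant and from 7.69 to 7.98 over the triple mutant, and none of its genes was near 0. The median log2 fold changes of the list were -1.01 and -0.96, and the change of ins-6 was -3.81 and -3.69. The largest fall in the list was that of daf-11, a guanylyl cyclase gene of these neurons. It stood at -2.44 (adjusted p = 5.52e-06, limma) and -3.22 (adjusted p = 3.19e-07, limma). odr-4 lay above 0 in both comparisons, at 0.26 and 0.30, and ttx-1 in the triple mutant, at 0.11, without being called. Of 11 neuronal genes, 6 and 8 fell and 1 rose in each. Of 6 intestinal genes, 3 fell in each comparison, and 1 rose in the triple mutant. The part of these cell types in the lower values of ins-6, ins-11 and the other members was not tested.

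Markers of embryonic stage moved as well. Of 12 late embryo genes, 7 fell in each comparison, beside 15% and 16.2% of all genes called as lower. Of 14 maternal transcripts, 11 rose in the libraries labelled double mutant and 2 in the triple mutant. Of 7 early zygotic genes, 5 rose in the first comparison, and 1 rose and 1 fell in the second. Among all genes, 7.0% and 6.38% were called as higher. The mean of the maternal list was 11.84 to 12.40 in the libraries labelled double mutant. It was 10.31 to 10.60 in daf-2 replicates 1 to 3 and 11.68 in daf-2 replicate 4, and 10.93 to 11.11 in triple mutant replicates 1 to 3 and 12.57 in replicate 4, so 1 library of each of these genotypes stood apart. The 6 yolk genes of the adult intestine were called in neither comparison, with list means of 4.86 to 6.19 over all libraries.

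The members were also fitted without these libraries, and with stage as a term. Without daf-2 replicate 4, 6 members were called in the first comparison, with ins-7, ins-10, ins-22 and ins-28 lost, and 9 in the second, with ins-7 and ins-26 lost. Without triple mutant replicate 4, 10 and 11 were called, the same members as with all libraries. Without daf-2 replicate 4, ins-6 stood at -3.84 and -3.71, ins-11 at -3.62 and -3.63 and ins-20 at -2.20 and -2.21, all called. With a score of stage markers as a covariate, 9 members were called in the first comparison and 13 in the second, all lower. Of all genes, 3834 and 5809 were called in that fit. In the first, 8 of the 10 remained, ins-10 and ins-18 were lost and ins-36 was gained, and in the second all 11 remained and ins-29 and ins-36 were gained. ins-6 was then at -3.85 and -3.71, ins-11 at -4.29 and -4.16 and ins-20 at -2.34 and -2.29, again all called. The score ran from -5.42 to -3.77 in daf-2, from -3.14 to -2.49 in the labelled double mutant and from -4.70 to -1.97 in the triple mutant. The first of these ranges does not overlap with the second, so in the first comparison stage and genotype cannot be told apart by this fit.

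**Figure D5:**
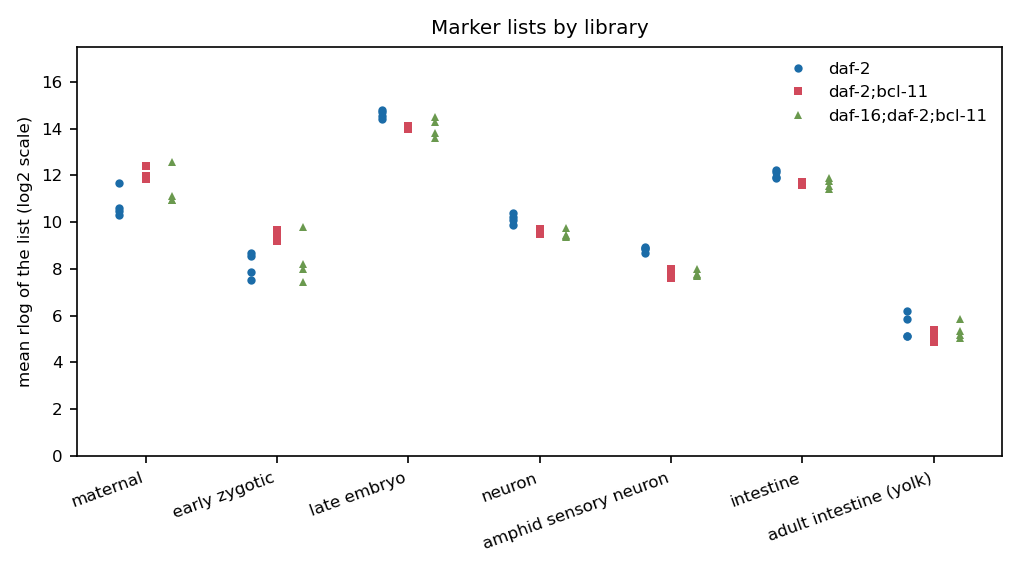
Mean rlog value (log2 scale) of each marker list in each library, with daf-2 as circles, labelled double mutants as squares and the triple mutant as triangles. The amphid sensory neuron list lies at 8.68 to 8.96 in daf-2 and at 7.61 to 8.00 elsewhere. Within daf-2 and within the triple mutant, the maternal list is highest in replicate 4 (11.68 and 12.57).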

How the data were processed

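RNA from eggs of 3 genotypes (12 libraries, 4 per genotype) was prepared by the authors from 5 ng with Smart-seq2, which does not keep strand. Per the labels, bcl2fastq 2.20, kallisto 048.0 and the WBcel235 build were used, and the authors deposited rlog values on a log2 scale for 25122 genes, without counts, so depth and intervals that need it are not given. Values were used as deposited. Names came from a gene name table (23471 matched) and coordinates from the Ensembl 115 annotation of WBcel235, a later release than the authors'. All genes were tested in 1 linear model of the 12 libraries without a block (limma 3.58.1, eBayes with trend, R 4.3.3), with Benjamini-Hochberg adjustment over all genes. For single members, two-sided exact permutation tests ran over 70 arrangements. The pipeline was tested on simulated data.

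The members and lists were chosen with earlier results of these data known. Named genes are all members, the targeted genes and the genes of the pathway and marker lists; genes near or overlapping members were added after their values were seen, and 1 gene of the cascade list is not reported here. Per the labels, replicate numbers are batches and therefore pair the libraries. Deviations of same-numbered libraries from their genotype means correlated with a mean r of 0.031, 0.215 and -0.047 in the 3 comparisons. Alternatives were eBayes without trend, only the 2 genotypes compared, a minimum mean of log2(10), median centring, quantile normalization, a replicate block, thresholds of 1 and of none, a stage score covariate and each library left out in turn. Promoter motifs were not analysed here. No columns were left unused.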

Additional observations from a re-analysis of the deposited data

Results flagged for a closer look

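In 9 of 135 groups of 4 libraries examined, 1 library lay far from the other 3 by Dixon's criterion, which chance does in about 1 group in 20 (6.75 of 135). 5 of these concern members. ins-1 was 5.97 in daf-2 replicate 1, beside a mean of 7.16 in the others. ins-10 was 4.37 in daf-2 replicate 3, beside 4.77. ins-11 was 4.62 in triple mutant replicate 1, beside 5.98, and ins-27 was 4.14 in replicate 4 of that genotype, beside 4.69. ins-28 was 2.86 in labelled double mutant replicate 2, beside 3.08.

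Among the pathway genes, kpc-1 was 13.61 in labelled double mutant replicate 1, beside a mean of 13.76 in the others. In daf-2 replicate 4, hid-1 was 12.69 beside 13.29. In triple mutant replicate 4, age-1 was 13.18 beside 12.43 and pptr-1 was 12.42 beside 12.94. Within daf-2 and within the triple mutant, replicate 4 was also the library with the highest mean of the maternal list.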

How the results depend on the processing

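No called member changed direction under any alternative, and 202 changes of sign concerned members or pathway genes called under neither setting. The number of members called in the libraries labelled double mutant against daf-2 was 10, and became 5 with a log2 fold change threshold of 1, 5 with quantile normalization and 6 without daf-2 replicate 4. Among all 25122 genes, 5517 were called there, and 2511, 4818 and 5212 under these settings. Leaving out 1 library at a time gave 6 to 11 members. In the triple mutant against daf-2 the number was 11, and became 6 with a threshold of 1 and 7 with quantile normalization. Among all genes, 5661 were called there, and 2629 and 4918 under these settings. Leaving out 1 library at a time gave 9 to 12 members. In the triple mutant against the libraries labelled double mutant no member was called by limma under any alternative, although 357 genes were called without triple mutant replicate 4. With the replicate number as a block, 10, 11 and 0 members were called, and the block changed no call of a member. Centring gave 10 and 10 calls, split into 6 higher and 4 lower, and 5 higher and 5 lower. Among all genes, however, centring raised the calls from 5517 to 8574 and from 5661 to 11465. Of all genes called, 68.1% were lower in the first comparison, against 21.7% with centring and 54.1% with quantile normalization, and 71.7% in the second, against 17.7% and 53.7%. The number of expressed members was 24, and was 28 at a minimum of log2(5), 19 at log2(20), 22 with centring, 23 with quantile normalization and 23 to 24 without 1 library. The cause of these changes was not tested. rlog values keep no depth, so how far depth limits the low members is unknown.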
